A study of Mus musculus with 8 samples.

Results

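The genes described here are 10 rows of a table of unique molecular identifier (UMI) counts from mouse bone marrow: the Notch receptors Notch1 and Notch2, the Notch response genes Hes1 and Dtx1, the T lineage transcription factors Gata3, Tcf7, Bcl11b and Satb1, the Bcl11b paralog Bcl11a, and the chemokine receptor Ccr9. They were chosen by name, and all 10 were among the 32285 genes of the table. Their levels were read in 8708 nuclei, sorted by marker genes into gates for T cell, dendritic, B lineage, lymphoid and stem cell RNA. The marrow had been sorted for LSK cells (lineage-negative, Sca1-positive, ckit-positive), which include blood stem cells and multipotent progenitors, and 10x multiome libraries were made from their nuclei. T58A mice, which carry a point mutation of MYC, and WT mice are labelled, with 2 RNA samples per genotype and 2 mice pooled in each. Barcodes in the table fall into 4 sets by their suffix, and no label ties a set to a genotype or a replicate, so T58A and WT were not compared. The table is named for T58A alone, and whether it also holds WT nuclei is not known. The table counts as 1 sample without replicates: no p-value was computed, and the 4 sets are given side by side, not as replicates.

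Notch receptors are cut after a ligand on a neighbouring cell binds them, and the freed inner part enters the nucleus, joins the DNA-binding protein RBPJ and a Mastermind coactivator, and turns on targets such as Hes1 and Dtx1. In the thymus, Notch1 signalling is required for the T cell fate, and Tcf7, Gata3 and Bcl11b act downstream in T lineage specification and commitment, while Notch2 is known for its part in marginal zone B cells and in a class of conventional dendritic cells. Ccr9, the receptor of the chemokine CCL25, helps progenitors settle in the thymus and is also found on plasmacytoid dendritic cells. Satb1 is a chromatin organizer needed for T cell development, and Bcl11a is a zinc finger repressor required in lymphoid progenitors and known for silencing fetal globin genes in red cell precursors.

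Promoter windows from RefSeq (build GRCm38.p6, from 250 bases before to 50 after an annotated start) were found for 9 of the 10 genes, 14 windows in all; Hes1 was not matched. The 3 genes that were higher in lymphoid than in stem nuclei are shown first, at chr2:26503773-26504072 on the minus strand (Notch1), chr17:51833241-51833540 on the minus strand (Satb1, the start at the 5′ end of its gene) and chr9:123766961-123767260 on the plus strand (Ccr9). The paralogs Bcl11a, detected in every gate, and Bcl11b, whose counts lay mainly in 1 gate, follow for contrast, at chr11:24080445-24080744 on the plus strand and chr12:108003365-108003664 on the minus strand. Their starts, at 24080695 and 108003414, lie inside the annotated genes, whose 5′ ends are at 24076564 and 108004145. Capitals mark a match to TGGGAA, the core letters bound by RBPJ, or to CTTTGA, the core letters bound by TCF and LEF factors, each searched on both strands; these motifs do not overlap in the windows shown.
Notch1: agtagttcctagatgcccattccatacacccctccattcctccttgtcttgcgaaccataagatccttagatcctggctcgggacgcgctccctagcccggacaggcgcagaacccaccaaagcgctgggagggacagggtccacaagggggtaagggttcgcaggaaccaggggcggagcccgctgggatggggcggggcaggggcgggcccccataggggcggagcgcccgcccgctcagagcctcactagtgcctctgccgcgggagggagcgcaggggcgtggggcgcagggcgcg
Satb1: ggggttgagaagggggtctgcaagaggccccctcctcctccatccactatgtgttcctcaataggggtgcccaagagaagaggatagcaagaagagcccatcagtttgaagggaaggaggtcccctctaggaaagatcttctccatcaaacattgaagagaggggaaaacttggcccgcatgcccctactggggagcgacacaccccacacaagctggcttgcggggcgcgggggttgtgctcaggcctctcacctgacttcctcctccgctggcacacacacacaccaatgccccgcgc
Ccr9: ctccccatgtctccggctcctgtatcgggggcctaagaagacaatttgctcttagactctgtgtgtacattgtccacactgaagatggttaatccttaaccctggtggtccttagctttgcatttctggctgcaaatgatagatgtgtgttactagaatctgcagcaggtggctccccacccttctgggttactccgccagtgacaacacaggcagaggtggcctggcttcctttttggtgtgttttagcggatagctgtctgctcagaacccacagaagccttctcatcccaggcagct
Bcl11a: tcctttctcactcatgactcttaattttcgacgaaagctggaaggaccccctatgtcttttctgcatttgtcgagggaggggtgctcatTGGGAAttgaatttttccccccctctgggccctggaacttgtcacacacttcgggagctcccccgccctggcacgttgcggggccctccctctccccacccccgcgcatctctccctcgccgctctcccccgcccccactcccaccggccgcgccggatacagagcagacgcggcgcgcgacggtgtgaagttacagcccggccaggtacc
Bcl11b: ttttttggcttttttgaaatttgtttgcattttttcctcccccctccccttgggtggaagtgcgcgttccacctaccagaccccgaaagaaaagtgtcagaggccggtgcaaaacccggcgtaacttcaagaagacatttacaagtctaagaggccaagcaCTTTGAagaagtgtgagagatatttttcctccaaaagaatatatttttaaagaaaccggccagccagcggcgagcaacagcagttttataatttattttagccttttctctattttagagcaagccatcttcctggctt
TGGGAA was found in 3 of the 14 windows: in Bcl11a, 161 bases before the start, and in 2 of the 5 Satb1 windows, at other starts than the one shown. Of all 32851 promoter windows of the same length, 25.6% held it. CTTTGA was found only in Bcl11b, 89 bases before the start, against 16.0% of all windows, and AGATAA, the core bound by GATA factors, in 0 of the 14 windows, against 11.2% of all windows. A match is a description of letters and not a bound site.

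To pass a gate, a nucleus needed a UMI of at least 4 genes on its marker list, and no list held any of the 10 genes. The T cell gate took 52 nuclei, the dendritic gate 162, the B lineage gate 203, the lymphoid gate 750 and the stem gate 1484. Gates for myeloid, megakaryocyte and erythroid markers took 731, 95 and 580 nuclei, 4243 passed none, and 408 passed several and were left out of the comparisons. Median depths were 4380 UMIs per nucleus in the T cell gate, 3694 in the dendritic, 4193 in the B lineage, 5234.5 in the lymphoid and 4746.5 in the stem gate. Barcode sets 1 and 3 had 24.6% and 24.2% of their UMIs on mitochondrially encoded genes, against 9.98% and 9.22% in sets 2 and 4, and 36 barcodes occurred in 2 sets. Levels are given as CPM, the counts of a gene per 1000000 UMIs, from sums over all nuclei of a gate, folds are ratios of CPM, and brackets give exact 95% intervals, which cover counting error only. A gene was measured with at least 50 counts over both gates, and called higher or lower at 1.5-fold or more on CPM plus 10 with the same direction in every barcode set, which is a description and not a test.

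The markers detected in each gate are given as a description, since they chose its nuclei. Ebf1 was detected in 99.0% of B lineage nuclei and Pax5 in 73.4%, with the B cell receptor gene Cd79a in 37.4%, and the class II gene Cd74 was detected in 94.4% of dendritic nuclei, with the plasmacytoid marker Siglech in 4.94%. Flt3 was detected in 97.3%, Dntt in 88.7% and Rag1 in 2.27% of lymphoid nuclei, and Mecom in 99.5%, Procr in 10.9% and Slamf1 in 9.64% of stem nuclei. In the T cell gate, Cd3e of the T cell receptor complex was detected in 9.62% of nuclei, and Cd3d, Cd3g and the receptor alpha constant gene Trac in 1.92% each. Among the markers detected more often were the kinase Lck (53.8%), the adaptor Skap1 (57.7%) and Trbc1 (42.3%), while its marker Prkcq, in 59.6% of its nuclei, was also detected in 40.2% of stem nuclei. Only 7 of the 52 nuclei had a UMI of any of Cd3e, Cd3d, Cd3g and Trac, so the group is called the T cell marker gate below. A list of 10 NK and innate lymphoid markers summed to 181 CPM in it (66.1 to 429 CPM over the sets, 0 of the markers at 0), against 5.50 CPM in stem nuclei (1.76 to 6.59 CPM, 4 of the markers at 0). Erythroid nuclei had 86.1 CPM of the same list (77.6 to 128 CPM, 6 of the markers at 0), so the sets of these 2 gates overlapped. Of the 52 nuclei, 22 also passed a progenitor gate, at a median of 10582.5 UMIs against 1816 in the other 30. The same held for 97 of the 203 B lineage and 22 of the 162 dendritic nuclei, and the main calls that change without such nuclei are given both ways.

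Over lymphoid against stem nuclei, 3 of the 7 measured genes, Notch1, Satb1 and Ccr9, were called higher and 0 lower, while 3.53% of all 10794 measured genes were called higher and 6.44% lower. Over B lineage against stem nuclei, 2 of 6 were called higher and 2 lower (4.53% and 12.9% of all measured genes). Over dendritic against stem nuclei, 2 of 7 were called higher and 0 lower (7.96% and 13.9%). In the T cell marker gate against stem nuclei, 5 of 8 were called higher and 0 lower (3.35% and 8.64%). Dtx1 was measured in none of the comparisons, and Tcf7 and Bcl11b only in those of the T cell marker gate.

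**Figure D1:**
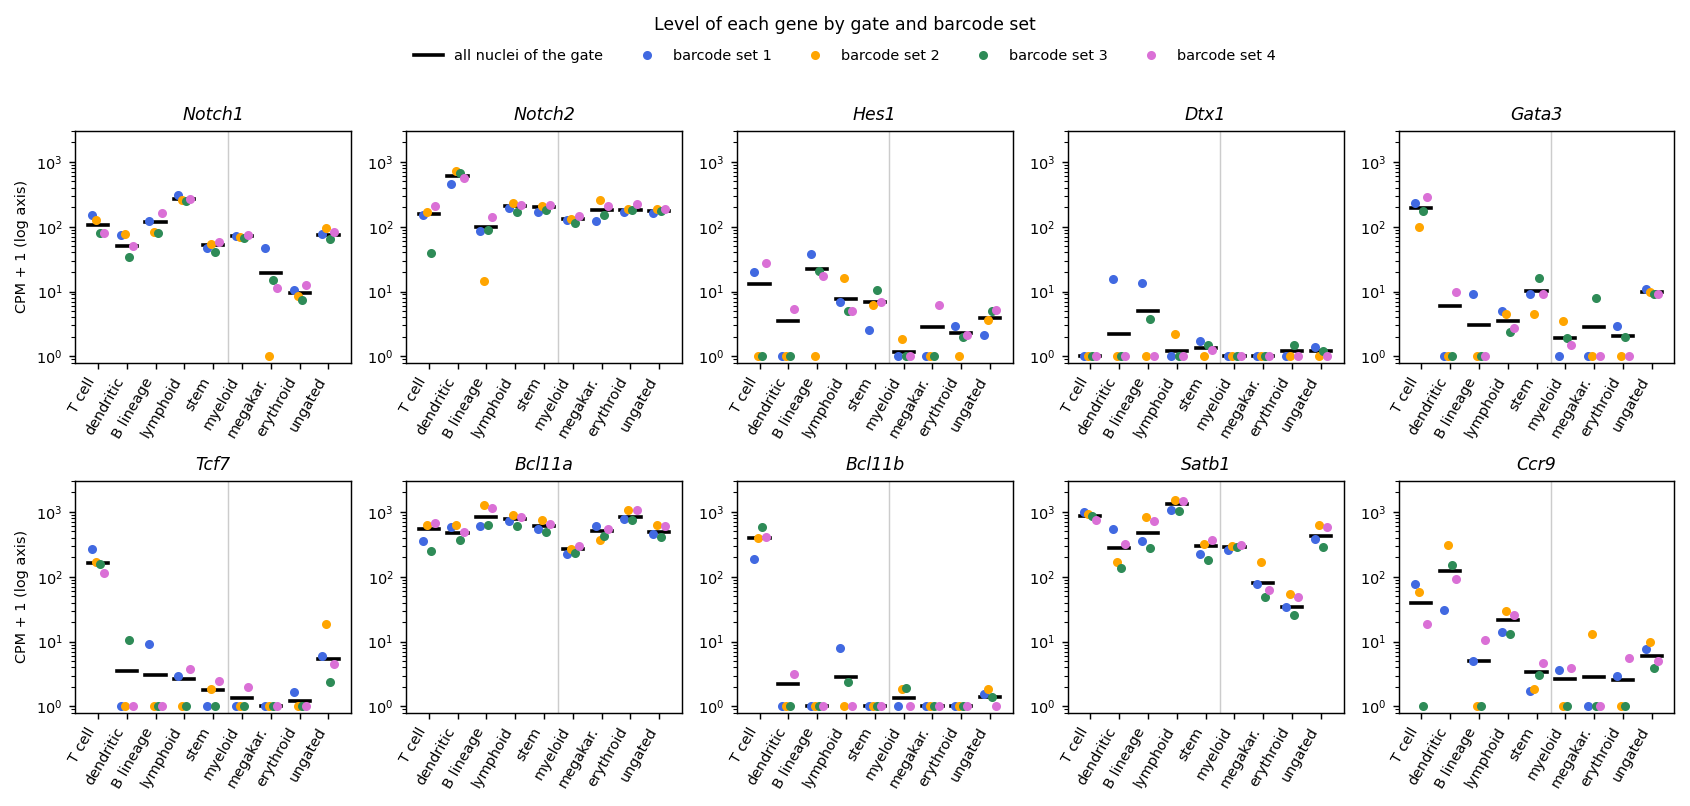
Level of each of the 10 genes by gate, as CPM plus 1 on a log axis, with a black bar for all nuclei of a gate and a point for each of the 4 barcode sets; gates right of the grey line and nuclei in no gate are shown for context. Notch1 and Satb1 were highest in the lymphoid gate, Notch2 and Ccr9 in the dendritic gate, and Gata3, Tcf7 and Bcl11b in the T cell marker gate.

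Notch1, the receptor required for the T cell fate, was highest in lymphoid nuclei. Its level was 312, 253, 246 and 262 CPM in lymphoid nuclei of barcode sets 1 to 4, against 45.3, 53.7, 39.2 and 58.1 CPM in stem nuclei. Every lymphoid value lay above every stem value, and the pooled levels of 269 CPM in lymphoid and 51.1 CPM in stem nuclei differed 5.27-fold [4.71 to 5.89]. A UMI of Notch1 was found in 69.7% of lymphoid and 22.1% of stem nuclei, and in 40.0% and 8.74% once each nucleus was thinned to 2000 UMIs. Erythroid nuclei, which were deeper at a median of 7409.5 UMIs, had one in 5.86%, or 0.994% after thinning, so the share in stem nuclei lay above the one seen there.

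In B lineage nuclei Notch1 stood at 123, 81.3, 78.1 and 164 CPM in the 4 sets, above all stem values and below all lymphoid values. The pooled 117 CPM in B lineage nuclei, against 51.1 CPM in stem nuclei, was called higher (2.28-fold [1.84 to 2.81]), and against 269 CPM in lymphoid nuclei it was called lower (0.433-fold [0.354 to 0.525]). The 106 B lineage nuclei that passed no progenitor gate had 86.9 CPM, and the call against stem nuclei was then lost, at a log2 ratio of 0.66 on CPM plus 10. It was also lost with gates set at 2000 UMIs per nucleus (0.64), without the 5% deepest nuclei (1.09) and with a mean over nuclei (0.99), against 1.05 in the main comparison. Dendritic nuclei had 50 CPM of Notch1 (0.978-fold [0.689 to 1.35] the stem level), with 2 sets above and 2 below the stem level. The order of the gates from high to low was lymphoid, B lineage, T cell marker, myeloid (70.3 CPM), stem, dendritic, megakaryocyte (18.1 CPM) and erythroid (8.48 CPM). Sets of lymphoid and B lineage nuclei did not overlap, nor did those of T cell marker and myeloid or of myeloid and stem nuclei, while all other neighbours in that order overlapped.

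The T cell marker gate had 107 CPM of Notch1 against 51.1 CPM in stem nuclei, 2.08-fold [1.44 to 2.93] and called higher. That call rested on the nuclei that also passed a progenitor gate: they had 128 CPM, from 32 of the 36 counts. The other 30 nuclei had 45.6 CPM, from 4 counts, and without the progenitor-passing nuclei the log2 ratio to stem nuclei turned to -0.14. The call was lost as well with 5 markers needed for a gate (log2 ratio 0.22), with gates at 2000 UMIs (0.81), with a mean over nuclei (0.92) and with narrower T cell markers (0.69).

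Notch2, the second receptor, had another order. Dendritic nuclei had 459, 713, 684 and 568 CPM in barcode sets 1 to 4, against 168, 208, 182 and 215 CPM in stem nuclei. All 4 dendritic values lay above all stem values, and the pooled 601 CPM in dendritic nuclei was 3.02-fold [2.72 to 3.34] the 199 CPM of stem nuclei. Notch2 was detected in 83.3% of dendritic and 58.6% of stem nuclei, or 73.5% and 31.3% at 2000 UMIs. Lymphoid nuclei, with 206 CPM, did not differ from stem nuclei beyond counting error (1.04-fold [0.955 to 1.12]), in contrast to Notch1.

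B lineage nuclei had 97.3 CPM of Notch2, with 86.1, 13.5, 86.5 and 138 CPM in the sets, and all 4 lay below the stem values. The ratio to stem nuclei was 0.488-fold [0.393 to 0.600] and was called lower, as it was against lymphoid nuclei (0.471-fold [0.378 to 0.582]). Barcode set 2 held only 7 B lineage nuclei, with 1 count of Notch2. With 3 markers enough for a gate, the call against stem nuclei was lost (log2 ratio -0.57). The T cell marker gate had 157 CPM and was not called, but its 30 nuclei that passed no progenitor gate had 91.2 CPM, from 8 counts, and were called lower than stem nuclei (log2 ratio -1.05) and lymphoid nuclei (-1.10). Other gates lay between 132 CPM (myeloid) and 206 CPM (lymphoid), and in the order dendritic, lymphoid, stem, erythroid, megakaryocyte, T cell marker, myeloid and B lineage, only the step from dendritic to lymphoid was free of overlap between sets.

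Read together, the share of Notch1 among UMIs of both receptors was 40.4% [30.2 to 51.4] in the T cell marker gate, 7.68% [5.54 to 10.3] in dendritic, 54.5% [47.5 to 61.4] in B lineage and 56.6% [54.4 to 58.7] in lymphoid nuclei, and 20.4% [18.7 to 22.2] in stem nuclei. In every barcode set it was lower in dendritic than in stem nuclei (4.67% to 13.9% against 17.7% to 21.3%) and higher in lymphoid than in stem nuclei (51.9% to 61.7%). These shares compare gates only, since the capture of each transcript is not known. Within dendritic nuclei, the 125 with at least 2 markers of conventional dendritic cells had 666 CPM of Notch2, and the 6 with markers of plasmacytoid cells had 78.7 CPM, from 2 counts. Most of the conventional markers were also on the list of the dendritic gate, while of the plasmacytoid ones only Siglech was. The gate thus favours conventional nuclei, and the sizes of these groups do not give the composition of the marrow.

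The other 2 Notch receptors were rare. Notch3 had 45 counts in the whole table, 21 of them in stem nuclei and 0 in dendritic, B lineage and lymphoid nuclei. Notch4 had 54 counts, of which 22 were in dendritic nuclei, at 27.5 CPM there against 0.819 CPM in stem nuclei. Both stayed under 50 counts in each comparison, and these values were singled out after they were seen.

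Of the Notch response genes, Hes1, a basic helix-loop-helix repressor, was low in each gate and Dtx1, a ubiquitin ligase that modifies Notch signalling, was close to absent. Hes1 had 36.9, 0, 19.5 and 16.1 CPM in B lineage nuclei of sets 1 to 4, against 1.51, 5.28, 9.54 and 5.86 CPM in stem nuclei. The 3 B lineage sets with counts lay above the stem values, and set 2, with 7 nuclei, had none. The pooled ratio of 21.3 CPM in B lineage to 5.96 CPM in stem nuclei was 3.57-fold [2.04 to 6.04] and was not called, and without set 2 it was called higher. Hes1 stood at 11.8 CPM in the T cell marker gate (4 counts), 2.50 CPM in dendritic nuclei (2 counts) and 6.66 CPM in lymphoid nuclei.

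Pooled over the whole gate, the lymphoid nuclei, where Notch1 was 5.27-fold higher, did not differ from stem nuclei in Hes1 beyond counting error (1.12-fold [0.682 to 1.80]). Within the gate Hes1 was uneven, as given below by lymphoid markers and by Il7r. All neighbours in the order of Hes1 levels overlapped between sets. Dtx1 had 14 UMIs in 14 of the 8708 nuclei: 1 was in dendritic nuclei, 4 in B lineage, 1 in lymphoid and 3 in stem nuclei, and the other 5 lay in erythroid nuclei, in several gates or in none. None was in the T cell marker gate, where a count of 0 allows up to 8.88 CPM.

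Other Notch targets were as sparse: of 9 listed genes, only Gimap5 was measured against stem nuclei. Gimap5, a GTPase of lymphocyte survival, had 3.75 CPM in dendritic and 7.09 CPM in B lineage nuclei, against 16.1 CPM in stem nuclei, and was called lower in both. Ptcra, which encodes the pre-T cell receptor alpha chain, had 15 counts in the table and Il2ra 22. Ligands were rare too: of 6 listed, only Jag2 was measured, at 7.35 CPM in lymphoid and 6.43 CPM in stem nuclei.

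**Figure D2:**
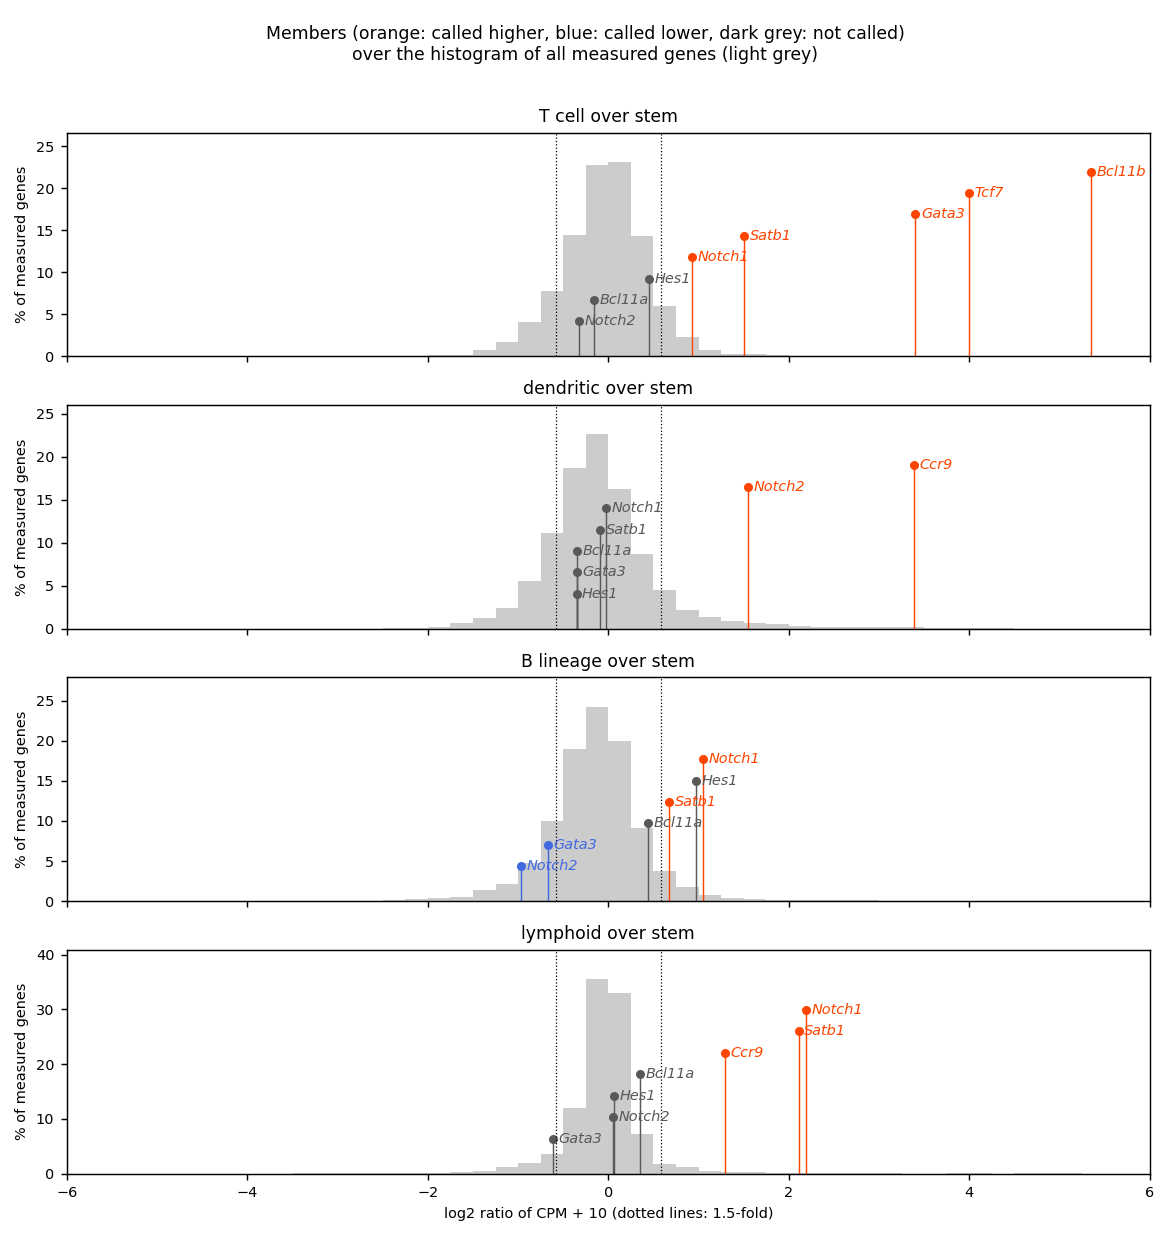
Log2 ratio of CPM plus 10 of the measured members in 4 comparisons with stem nuclei, as lines with points over the histogram of all measured genes (vertical axis: percent of measured genes). Bcl11b, Tcf7 and Gata3 lay far out in the T cell marker gate, Ccr9 and Notch2 in the dendritic gate, and Notch1 and Satb1 in the lymphoid gate.

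The lists of other genes held 82 in all: genes of the Notch pathway, and 25 other T lineage regulators that are given on their own below. In lymphoid against stem nuclei, 59 of the 82 were measured, of which 6 were called higher and 6 lower (3.53% and 6.44% of all measured genes). Their median log2 ratio was 0.00 against -0.03 for all measured genes. The T lineage regulators made up 3 of the 6 higher and 5 of the 6 lower genes. None of the 15 measured genes for receptor cleavage and glycosylation was called there. Of 14 measured genes of the nuclear complex, 2 were higher: the coactivator Maml3 (2374 CPM in lymphoid against 988 CPM in stem nuclei, 2.40-fold) and the corepressor Tle3 (2.08-fold). Of 9 measured inhibitors and turnover genes, Dtx4, a paralog of Dtx1, was higher (17.5 CPM against 3.27 CPM, 5.33-fold [3.41 to 8.54]) and the ubiquitin ligase Nedd4 lower (0.469-fold).

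In dendritic against stem nuclei, 57 of the 82 were measured, with 5 higher and 12 lower (7.96% and 13.9% of all measured genes) and a median log2 ratio of -0.14, equal to that of all measured genes at this rounding. The T lineage regulators made up 2 of the 5 higher and 8 of the 12 lower genes. Rbpj, the DNA-binding partner of all Notch receptors, had 472 CPM in dendritic and 108 CPM in stem nuclei (4.37-fold [3.87 to 4.93]), and was called higher, as Notch2 was. The coactivator Maml3 had 540 CPM in dendritic and 988 CPM in stem nuclei (0.546-fold [0.495 to 0.602]), with 3 sets lower and 1 higher and no call, and the corepressor Spen was called lower (0.625-fold). Numb, an endocytic adaptor known as a Notch inhibitor, was 1.62-fold higher, and the gamma-secretase subunit Aph1c 1.92-fold higher. The receptor protease Adam10 (0.553-fold) and Pofut1 (0.549-fold), which adds fucose to Notch, were called lower.

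In B lineage against stem nuclei, 58 were measured, with 5 higher and 10 lower (4.53% and 12.9% of all measured genes), of which 4 and 6 were T lineage regulators. Tle3 was the only called gene of the nuclear complex (2.42-fold), and Dtx3 (0.367-fold), Nedd4 (0.621-fold) and Aph1c (0.173-fold) were called lower. In the T cell marker gate 57 were measured, with 10 higher and 5 lower (3.35% and 8.64%), of which 7 and 4 were T lineage regulators. Rbpj (183 CPM there against 108 CPM in stem nuclei), Tle3 and the ubiquitin ligase Itch were among those higher, and Mfng, a glycosyltransferase that tunes the response of Notch to ligands, was lower (0.443-fold).

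Satb1 followed Notch1 across gates. It stood at 1083, 1504, 1027 and 1497 CPM in lymphoid nuclei of barcode sets 1 to 4, against 223, 318, 181 and 375 CPM in stem nuclei. The groups did not overlap, and the pooled 1323 CPM in lymphoid nuclei was 4.43-fold [4.23 to 4.65] the 298 CPM of stem nuclei. A UMI was found in 94.0% of lymphoid, 50.5% of stem and 14.8% of erythroid nuclei. Both in lymphoid and in stem nuclei, sets 2 and 4 lay above sets 1 and 3, and the same held for Notch2 and Bcl11a. It is also the split by mitochondrial share, and the part of that share in the levels was not tested.

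In the T cell marker gate Satb1 had 985, 934, 857 and 745 CPM in the sets, above all stem and below all lymphoid values. The pooled 867 CPM there was 2.91-fold [2.57 to 3.28] that of stem nuclei and was called higher. Without the nuclei that also passed a progenitor gate it was 638 CPM, and no longer called, since at least 1 barcode set was then not above its stem value. In B lineage nuclei Satb1 had 481 CPM, 1.61-fold [1.46 to 1.78] the stem level and called higher, but the 106 nuclei with no progenitor gate had 244 CPM, below the 298 CPM of stem nuclei. Dendritic nuclei had 280 CPM in all. In their barcode set 1 it was 548 CPM, against 134 to 323 CPM in the other sets, and the 140 nuclei that passed no progenitor gate had 172 CPM in all. Satb1 was lowest in erythroid nuclei, at 32.6 CPM.

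Ccr9 was highest in dendritic nuclei. Sets 1 to 4 had 29.6, 303, 153 and 91.8 CPM in dendritic nuclei, against 0.755, 0.880, 2.01 and 3.66 CPM in stem nuclei. The pooled 120.0 CPM in dendritic nuclei was 48.8-fold [30.2 to 82.5] the 2.46 CPM of stem nuclei, and every dendritic set lay above every stem set, although set 1 rested on 2 counts. In set 2, with 13 dendritic nuclei, 7 plasma cell markers summed to 19995 CPM, against 43.7 to 196 CPM in the other dendritic sets and 54.6 to 171 CPM in stem nuclei. Without that set the log2 ratio of Ccr9 on CPM plus 10 was 3.16, against 3.38 with all sets, and that of Notch2 was 1.53, against 1.55. The 6 nuclei with at least 2 plasmacytoid markers had 512 CPM, from 13 counts, and the 125 of the conventional side had 110 CPM, from 69 counts. The 31 nuclei of neither side had 96.3 CPM, from 14 counts in 2 nuclei. In barcode set 2, whose level was the highest, the 3 nuclei of neither side had 830 CPM, against 0 to 29.0 CPM in such nuclei of the other sets. Most dendritic Ccr9 counts thus lay in nuclei with conventional markers. Those nuclei were also 125 of the 162, and their level was under the pooled one. Of 162 dendritic nuclei, 26.5% had a UMI, against 1.35% of stem and 1.21% of erythroid nuclei.

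Lymphoid nuclei had 12.9, 28.2, 12.1 and 24.5 CPM of Ccr9 in the sets, also above all stem values. Their pooled 20.4 CPM was 8.32-fold [5.13 to 14.1] that of stem nuclei and called higher, with a UMI in 6.80% of nuclei. B lineage nuclei had 4.05 CPM, from 4 counts, called lower than lymphoid nuclei (0.198-fold [0.0529 to 0.526]) but with fewer than 50 counts once barcode set 4 was left out. The T cell marker gate had 38.5 CPM from 13 counts, with none in set 3, and did not reach 50 counts against stem nuclei. Against lymphoid nuclei 2 sets were higher and 2 lower.

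The number of lymphoid markers in a nucleus gave a finer scale, outside the T cell marker, B lineage and dendritic gates. From 0 to 7 or more of the 8 markers, Notch1 stood at 31.1, 55.0, 76.4, 132, 160, 219, 281 and 291 CPM. Each step was upward, from 3156 nuclei with no marker to 164 nuclei with 7 or more. Satb1 went from 115 CPM at 0 markers to 1324 CPM at 6 and 1258 CPM at 7 or more, and Ccr9 from 1.65 CPM at 0 to 25.2 CPM at 7 or more, with dips at 2, 4 and 6 markers. Notch2 stayed between 165 and 221 CPM. Bcl11a had 521 CPM at 0 markers and 513 CPM at 1, and then rose at each step to 832 CPM at 7 or more. Gata3 stood at 6.81 CPM at 0 markers, at 0 CPM at 6 and at 2.29 CPM at 7 or more. Hes1 had 2.99 CPM [2.14 to 4.08] at 0 markers and 0.606 to 3.59 CPM at 1 to 5 markers. It had 12.8 CPM [7.45 to 20.5] at 6 markers, from 17 counts, and 9.17 CPM [4.74 to 16.0] at 7 or more, from 12 counts. By the number of stem markers Notch1 ran the other way, with 132 CPM at 0 markers, 60.4 CPM at 4 and 56.0 CPM at 7. Median depth changed along the lymphoid scale too, from 3284 to 6741 UMIs per nucleus, and its part was not tested; CPM are per UMI, but a deeper nucleus shows more markers.

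**Figure D3:**
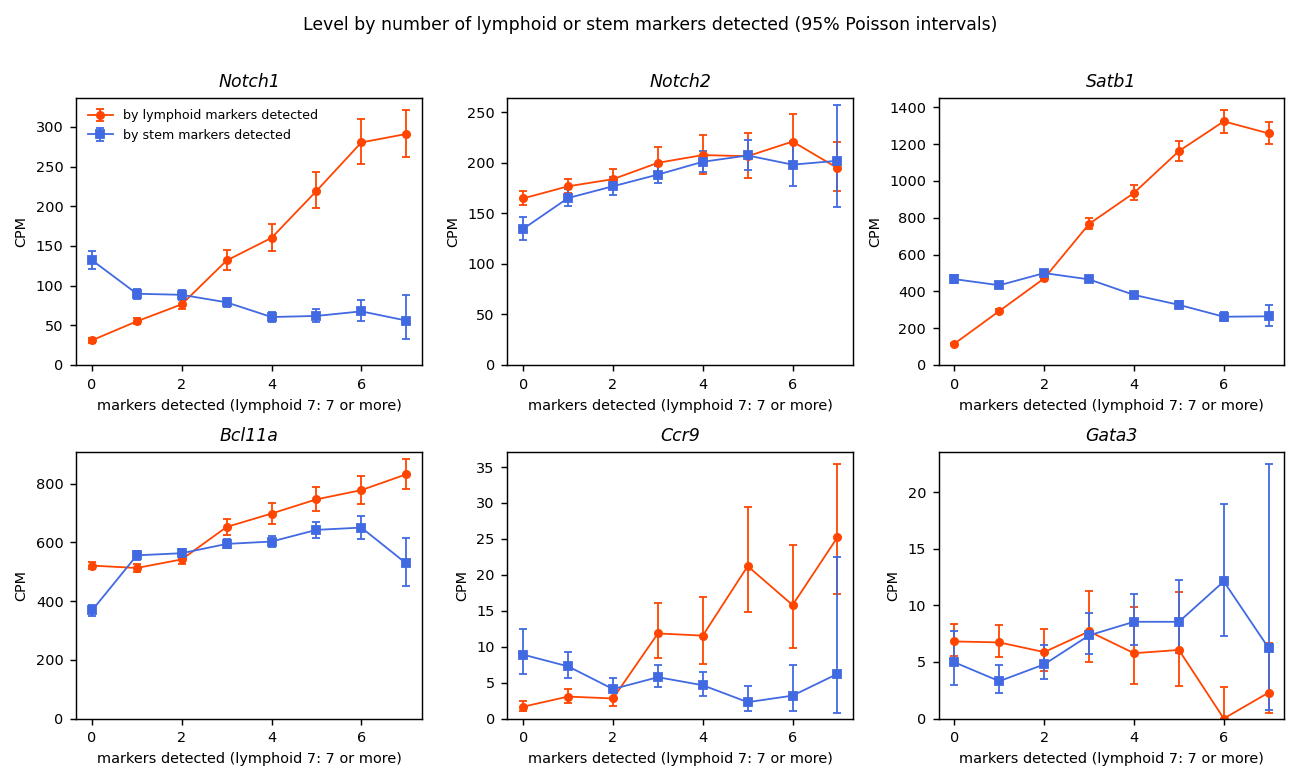
Level in CPM of 6 genes (vertical axes) against the number of lymphoid markers (orange circles) or stem markers (blue squares) detected in a nucleus, with exact 95% Poisson intervals, for nuclei outside the T cell marker, B lineage and dendritic gates. Notch1 and Satb1 climbed with lymphoid markers, while Notch2 changed little.

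Splitting the 750 lymphoid nuclei by Il7r, the receptor of interleukin 7, gave 311 nuclei with and 439 without a UMI of it. None of the 5 measured genes was called (0.784% of all measured genes were higher and 1.02% lower). Notch1 was 298 CPM in Il7r-detected and 247 CPM in Il7r-undetected nuclei (1.20-fold [1.07 to 1.35]), with 3 sets higher and 1 lower. Ccr9 was 26.7 CPM in Il7r-detected and 15.7 CPM in Il7r-undetected nuclei (1.70-fold [1.10 to 2.65]), with barcode set 3 the exception, and without that set it was called higher. Satb1 had 1321 CPM in Il7r-detected and 1324 CPM in Il7r-undetected nuclei. Of 29 Hes1 counts, 22 lay in Il7r-detected and 7 in Il7r-undetected nuclei, under the minimum of 50. That was 11.7 CPM against 2.82 CPM (4.2-fold [1.72 to 11.5]), with 3 sets higher and 1 lower, and 13 of the 22 counts lay in barcode set 2. All 8 Bcl11b counts and all 7 Tcf7 counts of the lymphoid gate fell in Il7r-detected nuclei, where they came from 3 and 4 nuclei.

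The T lineage factors Gata3, Tcf7 and Bcl11b had their highest levels in the T cell marker gate, which held 18.7% of Gata3, 35% of Tcf7 and 85.9% of Bcl11b counts. Nuclei in no gate held 39.2% of Gata3 and 42.7% of Tcf7 counts, with 33.7% of all UMIs. Stem nuclei held 22.5% of Gata3 counts, with 18.7% of all UMIs. Bcl11b, the factor of T lineage commitment, had 189, 397, 585 and 408 CPM in its 4 sets, against 0 counts in stem nuclei of every set. The pooled 397 CPM was 1130-fold the stem level if 3 counts over the stem gate are taken as the floor. The exact interval of the ratio began at 907-fold. Of 156 Bcl11b counts in the whole table, 134, or 85.9%, lay in these 52 nuclei, which held 0.739% of all UMIs. Only 28 of 8708 nuclei had a UMI of Bcl11b: 15 in the T cell marker gate, 1 in the dendritic gate, 3 in the lymphoid gate and none among 203 B lineage or 1484 stem nuclei, where 0 nuclei allows a share of nuclei with a UMI of up to 1.48% and 0.202%, which does not limit how many expressed the gene.

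Gata3, a zinc finger factor of T helper and innate lymphoid cells as well as early T cells, had 227, 99.1, 175 and 284 CPM in the T cell marker gate, against 8.30, 3.52, 15.1 and 8.05 CPM in stem nuclei. All 4 values lay above all stem values (pooled 192 CPM against 9.12 CPM, 21.1-fold [14.9 to 29.7]). With gates set at 2000 UMIs, which left 13 nuclei in the T cell marker gate, the call was lost at a log2 ratio of 4.72, as not every set was higher. In dendritic nuclei Gata3 had 5.0 CPM, from 4 counts and not called against stem nuclei, and 0 counts in the 140 nuclei that passed no progenitor gate, called lower (log2 ratio -0.94). Lymphoid nuclei had 2.53 CPM against 9.12 CPM in stem nuclei (0.277-fold [0.133 to 0.523]), with 3 sets lower and 1 higher, which was not called but became a call of lower without barcode set 2. A UMI of Gata3 was found in 1.20% of lymphoid, 4.51% of stem and 0.862% of erythroid nuclei. B lineage nuclei had 2 counts, at 2.03 CPM, called lower than stem nuclei (0.222-fold [0.0264 to 0.830]), a call that was lost, among other alternatives, without barcode set 3, without set 4 and without the progenitor-passing nuclei.

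Tcf7, a factor that Notch turns on in early T cells, had 265, 165, 156 and 115 CPM in the T cell marker gate, against 0, 0.880, 0 and 1.46 CPM in stem nuclei. The pooled 163 CPM was 199-fold [90.3 to 518] the 0.819 CPM of stem nuclei and was called higher. It rested on 55 and 7 counts, and fell under the 50 counts needed when barcode set 1, 2 or 4 was left out, with log2 ratios on CPM plus 10 between 3.81 and 4.27. The same held with 5 markers (4.36), with gates at 2000 UMIs (4.61) and without the progenitor-passing nuclei (5.32). Of 73 nuclei with a Tcf7 UMI, 18 were in this gate and 30 were in no gate. Ungated nuclei of barcode set 2 had 17.4 CPM, against 1.38 to 4.90 CPM in the other sets.

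Of the 52 nuclei, 5 had UMIs of all 3 factors, 13 of 2 and 11 of 1, while 23 had none. In the lymphoid gate 2 nuclei had 2 of them, and in the dendritic, B lineage and stem gates none had more than 1. The 3 factors were all higher in the 30 nuclei that passed no progenitor gate, at 547 CPM of Gata3, 422 CPM of Tcf7 and 627 CPM of Bcl11b, than in the 22 that did, at 68.0, 72.0 and 316 CPM. The 7 nuclei with Cd3 genes or Trac had 1 count of Bcl11b, 1 of Gata3 and 3 of Tcf7, and the 45 nuclei without them held 133, 64 and 52. For Tcf7 that was 99.6 CPM [20.5 to 291] in the 7 nuclei and 169 CPM in the 45. In the 7 nuclei with at least 2 NK or innate lymphoid markers, at a median of 1556 UMIs, Bcl11b had no count, Gata3 1 and Tcf7 2. That was 0 CPM [0 to 232] of Bcl11b, 62.8 CPM [1.59 to 350] of Gata3 and 126 CPM [15.2 to 454] of Tcf7. The other 45 had 416 CPM of Bcl11b, 199 CPM of Gata3 and 165 CPM of Tcf7, as high as the whole gate. For Gata3 and Tcf7 the 7 nuclei thus did not differ from the 45 beyond counting error.

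**Figure D4:**
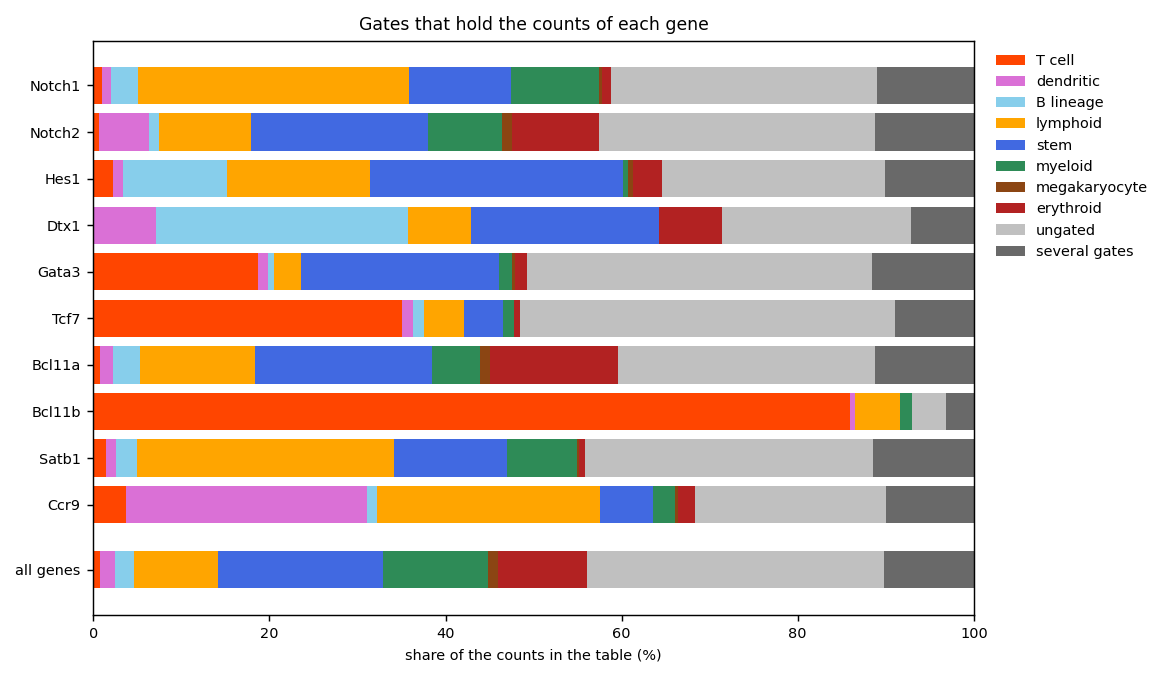
Share of each gene's counts (horizontal axis, percent of its counts in the table) that lay in each gate, with the share of all UMIs in the lowest bar. The T cell marker gate held 85.9% of Bcl11b counts with 0.739% of all UMIs, and the lymphoid gate 30.9% of Notch1 and 29.1% of Satb1 counts with 9.53% of all UMIs.

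Among 25 other regulators of the T lineage, 19 were measured in the T cell marker gate against stem nuclei, of which 7 were called higher and 4 lower (3.35% and 8.64% of all measured genes), with a median log2 ratio of 0.13 against -0.02 for all measured genes. Tox2 had 219 CPM in the gate and 0.585 CPM in stem nuclei, and Zbtb16, the PLZF factor of innate-like lymphocytes, had 826 CPM and 44.1 CPM (18.7-fold [16.0 to 21.9]). The HMG-box factor Tox (2409 CPM against 258 CPM), Ets1 (317 CPM against 18.1 CPM), the nuclear receptor Rora (1350 CPM against 288 CPM), Runx3 and Ikzf1 were the others called higher. Tal1, Lmo2, Spi1 and Gfi1 were called lower, although Tal1 had only 10 counts in the gate, Spi1 3 and Gfi1 1.

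Lymphoid nuclei shared part of this list only. Of 19 measured, Ets1 (3.34-fold over stem nuclei), Ikzf1 (2.16-fold) and Mef2c (1.87-fold) were called higher, and Rora, Tal1, Ikzf2, Zbtb16 and Lmo2 lower (3.53% and 6.44% of all measured genes). Zbtb16 and Rora were thus higher than stem nuclei in the T cell marker gate and lower in lymphoid nuclei, at 12.4 CPM and 36.0 CPM in lymphoid nuclei. In B lineage nuclei, 4 of 20 were higher and 6 lower (4.53% and 12.9% of all measured genes), with Lef1, the TCF family member of early B and T cells, at 505 CPM against 0.702 CPM in stem nuclei. In dendritic nuclei 2 of 19 were higher and 8 lower (7.96% and 13.9%), led by Id2, an inhibitor of E proteins needed for conventional dendritic cells, at 344 CPM against 2.69 CPM in stem nuclei.

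**Figure D5:**
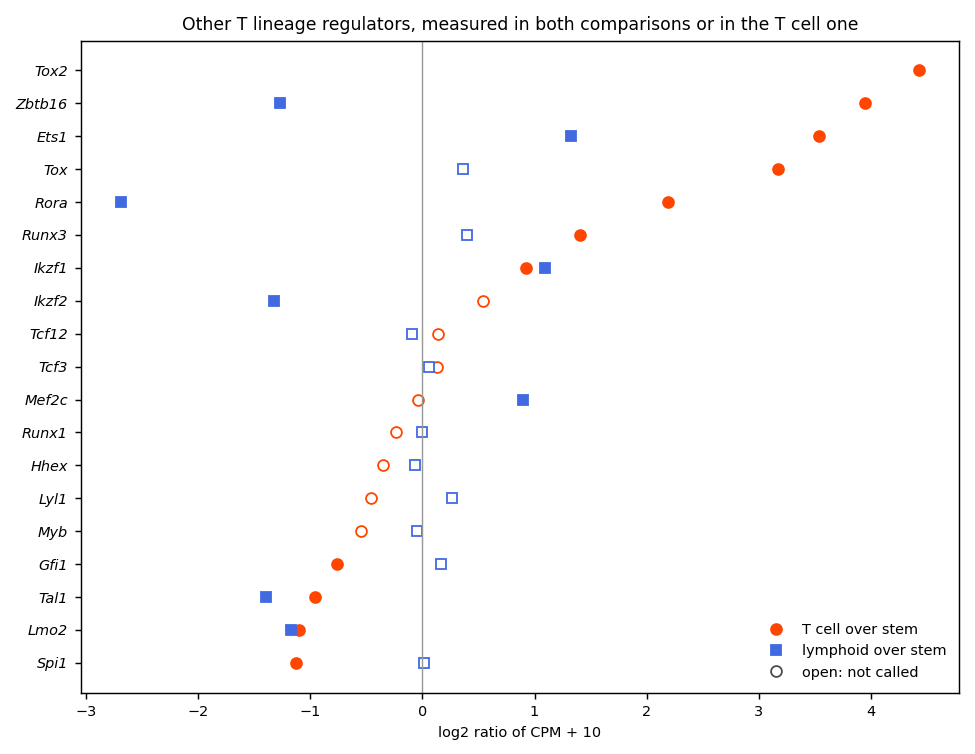
Log2 ratio of CPM plus 10 to stem nuclei for the listed T lineage regulators that were measured in the T cell marker gate, in that gate (orange circles) and in the lymphoid gate (blue squares), with open symbols for genes that were not called. Zbtb16 and Rora lay on opposite sides of 0 in the 2 gates.

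Set against lymphoid nuclei, 3 of 8 measured genes were called higher in the T cell marker gate and 2 lower (3.71% and 5.01% of all measured genes). Bcl11b (216-fold), Tcf7 (101-fold) and Gata3 (76.2-fold) were the higher ones, and Notch1 (0.396-fold) and Satb1 (0.656-fold) the lower ones. The Tcf7 call was lost, with fewer than 50 counts, without barcode set 1, 2 or 4, with gates at 2000 UMIs, with narrower T cell markers and without the progenitor-passing nuclei, and that of Gata3 without set 4 and with gates at 2000 UMIs. The Satb1 call, at a log2 ratio of -0.60 close to the 1.5-fold limit, was lost without set 4 (-0.37), with 5 markers (-0.55), with gates at 2000 UMIs (-0.47), without the 5% deepest nuclei (-0.52), with a mean over nuclei (-0.41), with narrower T cell markers (-0.53) and without the progenitor-passing nuclei (-1.04, where not every set was lower). In dendritic against lymphoid nuclei, 2 of 5 were higher, Notch2 (2.91-fold) and Ccr9 (5.87-fold), and Notch1 (0.186-fold), Satb1 (0.212-fold) and Bcl11a (0.612-fold) lower (9.29% and 11.1% of all measured genes). In B lineage against lymphoid nuclei 0 of 6 were higher and 4 lower, among them Satb1 at 0.364-fold (2.88% and 6.84%).

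Bcl11a was detected throughout. It had 599, 1301, 628 and 1157 CPM in B lineage nuclei of sets 1 to 4 and 729, 890, 608 and 839 CPM in lymphoid nuclei, against 547, 750, 481 and 662 CPM in stem nuclei. Each set was higher than its own stem value, but the ranges overlapped, and the ratios of 1.37-fold [1.27 to 1.47] for B lineage and 1.28-fold [1.22 to 1.33] for lymphoid nuclei were not called. In all of these gates sets 2 and 4 lay above sets 1 and 3, as for Satb1 in lymphoid and stem nuclei. Erythroid nuclei had 829 CPM, the T cell marker gate 548 CPM and dendritic nuclei 480 CPM, and myeloid nuclei were lowest at 263 CPM. The 30 nuclei of the T cell marker gate that passed no progenitor gate had 160 CPM of Bcl11a, called lower than stem nuclei (log2 ratio -1.88) and lymphoid nuclei (-2.23), where Bcl11b was at 627 CPM. The 140 dendritic nuclei that passed none had 385 CPM and were called lower than stem nuclei (-0.66), which all dendritic nuclei were not. Bcl11b made up 42.0% of the UMIs of both paralogs in the T cell marker gate, against 0.234% in lymphoid nuclei and 0% of 5249 UMIs in stem nuclei. How reads shared by the paralogs were assigned was not stated in the labels.

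The genes most like each member were sought by Pearson's r of log2(CPM + 10) over 24 combinations of gate and barcode set with at least 20 nuclei, which share their libraries and left out the T cell marker gate, since no set had that many of its nuclei. Among 9082 genes, those most like Notch1 were H2afy (r = 0.93), Pecam1 and Il18rap, and those most like Satb1 were H2afy (0.97), Snx29 and Tspan2. Notch1 and Satb1 had r = 0.96 with each other. Notch2 was closest to Nsmaf (0.92), Myo9a and its own partner Rbpj (0.89), and Ccr9 to Havcr2 (0.93), Kynu and Btla. Bcl11a was closest to Airn (0.86), Zfp831 and Zfp644, and Hes1, on only 115 counts, to Trp53i11 (0.90), Rhoh and Colq. For Gata3 (Prkaa2, Mill2, Rb1cc1), Dtx1 (Polh, Atp1b1, Tmem128), Tcf7 (Cmip, Sema4b, Myo1c) and Bcl11b (Sv2a, Ctr9, Rnf141), r was at most 0.81 on few counts, and no likeness is read from it.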

How the data were processed

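UMI counts per gene and nucleus were used as the authors deposited them, with no normalization. Per the submitters' processing notes, the tools were Signac, Seurat and Cell Ranger ARC, with build mm10; their versions, the annotation and any filter on nuclei are not given in the sources used here. All 45723860 UMIs were whole-number counts, and 0 further columns of per-sample values were left unused. ATAC libraries were not analysed here. The 10 genes, the marker lists and the pathway lists were chosen with earlier results of these data known. T58A against WT, planned as an edgeR comparison, was not run, because barcodes could not be tied to samples. Counts were summed per gate and barcode set with Python 3.11.15, numpy 2.4.6, scipy 1.17.1 and pandas 2.3.3. Nuclei of exactly 1 of the T cell, B lineage and dendritic gates took it, whatever progenitor gate they passed; the others needed exactly 1 progenitor gate. No doublet caller was run; nuclei of several gates were left out, and the 5% deepest were left out in an alternative. Intervals are exact: Clopper-Pearson for shares, Poisson for CPM, binomial for ratios, and the floor for a count of 0 is 3 counts. The named genes are the 10 members, the 3 genes most like each, and the 2 largest ratios per pathway list; other named genes were chosen after their values were seen, and not every gene these rules pick is named. Scripts were tested on simulated data.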

Additional observations from a re-analysis of the deposited data

How the results depend on the processing

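Of 52 measured results of single genes, 28 were called; 15 kept the call under all alternatives and 13 lost it under at least one, while 11 uncalled results gained one. Over 660 single alternatives, 584 gave the same call. The number of genes called in B lineage against stem nuclei, 4, became 2 without the 5% deepest nuclei, 2 with a mean over nuclei and 1 without nuclei that passed a progenitor gate. In dendritic against stem nuclei 2 became 1 at a minimum of 200 counts and 4 without progenitor-passing nuclei. In the T cell marker gate against stem nuclei 5 became 3 with gates set at 2000 UMIs per nucleus, which left 13 nuclei, and 2 at 200 counts; against lymphoid nuclei 5 became 2 at 200 counts and 3 without barcode set 4. The 0 calls by Il7r became 1 without barcode set 3. The direction turned for Notch1 in the T cell marker gate (log2 ratio -0.14) and for Satb1 in B lineage nuclei (-0.28), both against stem nuclei and without progenitor-passing nuclei. Alternatives that leave out such nuclei or narrow the T cell markers were chosen after seeing the data. Causes were not tested, apart from fewer counts under the 200-count minimum. In lymphoid against stem, B lineage against lymphoid and dendritic against lymphoid nuclei the numbers stayed within 1.5 times of 3, 4 and 5 under all alternatives run. Depth limits Dtx1, Hes1, Tcf7 and the 52 nuclei of the T cell marker gate most. No paired analysis was possible because the columns could not be tied to the labelled samples and their replicate numbers.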
